A study of Mus musculus with 6 samples.

Results

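Macrophage and myeloid transcripts were examined in RNA from endothelial cells of mouse skin, sorted by fluorescence, from mice lacking the apelin receptor APJ (gene Aplnr) and from wild-type mice. The set holds 34 listed genes, taken as the probes whose accession maps to one of those symbols. Of these, 33 had a probe among 20018 symbols with a probe on the array, and Cd68 had none that the annotation table used here named. The 33 genes had 42 probes, and 7 genes had more than 1. Where a gene had several, the brightest was used.

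The compared groups were 3 APJ knockout samples and 3 wild-type samples, all of strain C57Bl/6J, and each sample's description names a mouse by number, without saying whether animals were pooled. The names of all 6 scanner files carry the embryonic stage E14.5, which no label states. The labels used here give neither the surface markers of the sort, the age or sex of the mice, nor whether the deletion was restricted to a tissue. Cells were sorted with no treatment afterwards, and 0.1 µg of RNA per sample was labelled with Cy3 for 1-colour Agilent expression arrays. Nothing states that the samples came from separate litters, and p-values reflect the spread among these 6 samples alone. An exact permutation test of 3 against 3 cannot go below 0.1.

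Macrophages are phagocytes that settle in the skin before birth and lie close to its vessels. They depend on the receptor CSF1R and its ligands CSF1 and IL-34, and their genes are switched on by the factor PU.1, encoded by Spi1. They make the chains of complement C1q, lysozyme and cathepsins, and they carry receptors that signal through the adaptors TYROBP and FcRγ. Some of these genes are not restricted to macrophages: mast cells also use FcRγ and Fc receptors, and lymphatic and sinusoidal endothelium also makes STAB1 and the mannose receptor MRC1.

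Each level below is the log2 of the processed signal minus the array's 75th percentile, so that 0 means a spot as bright as that percentile. Levels of different probes cannot be set against each other. A difference is given as APJ knockout minus wild type, on the log2 scale. A gene was tested where its probe was well above background, by the scanner software's flag, on all 3 arrays of at least 1 genotype. The test was limma with Benjamini-Hochberg adjustment over 24245 features and a threshold of 0.05.

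The 6 arrays held 55681 probes each. The share of probes well above background was 51.2% to 58.0% in APJ knockout samples and 50.3% to 57.6% in wild-type samples. The arrays lay on 2 slides that were scanned separately: replicates 1 and 2 of both genotypes on slide 1, and replicate 3 of both on slide 2. Aplnr read 1.90, 1.72 and 2.26 in APJ knockout samples and 3.35, 3.78 and 3.83 in wild-type samples. The Aplnr difference was -1.69 ± 0.19 (SE; limma adjusted p = 0.0238), and its adjusted p was 0.0780 once replicates were blocked. All 20 pan-endothelial genes were tested, and their summed linear signal spanned 1531 to 1662 in APJ knockout samples and 1517 to 1661 in wild-type samples, in units of the 75th percentile.

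Of the 33 members with a probe, 16 were well above background on all 6 arrays, 11 on 1 to 5 arrays and 6 on none. The number of members well above background was 26, 23 and 27 on the APJ knockout arrays of replicates 1 to 3, against 21, 17 and 25 on the wild-type arrays. Among the members, 10 were well above background on more APJ knockout than wild-type arrays, and 1, Il34, on more wild-type arrays. The 6 members below that mark everywhere were Cd163 (a haemoglobin scavenger receptor), Timd4 (a phosphatidylserine receptor of resident macrophages), Spi1, Folr2 (a folate receptor of resident macrophages), Cd33 and P2ry12 (an ADP receptor of microglia). A dim probe is not a sign that its transcript was missing, since a second F13a1 probe was below the mark on every array where the first was above it on all.

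No member passed the threshold with genotype alone in the fit, where 0.557% of all features passed (0.371% higher and 0.186% lower in APJ knockout). At an unadjusted limma p under 0.05, 14 of the 24 tested members were higher in APJ knockout, against 4.48% of all features, and none was lower. On the arrays of slide 1 alone no member passed either, where 0.0454% of all features did. Among the 24 tested, 7 had passed the brightness filter only through the APJ knockout arrays, so counts over the 24 favour that direction. Of the 16 that were well above background on all 6 arrays, 8 were higher at that unadjusted p, against 3.92% of features with the same property. Among the 16 members well above background on all 6 arrays, 13 had a difference above 0 and the median was 0.42, while 43.3% of the 22880 features that met the same criterion lay above 0, with a median of -0.02. Every APJ knockout array lay above every wild-type array for 7 of these 16 members, and for 6.4% of all tested features. These counts describe genes that vary together and were not tested as a set. The sizes depend on the background correction: under normexp, a model-based correction of the unsubtracted median signals run here with an offset of 50, all 24 differences kept their sign, 15 were more than 1.5 times smaller and none passed the limma threshold. In a bulk sample, fewer cells of a type and less RNA per cell cannot be told apart.

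The promoters of the genes on which the comparisons turn are shown because PU.1, the myeloid factor, binds a core that is often written GAGGAA. Each is the window of 250 bases before the RefSeq start of the gene on build GRCm38.p6, written 5′ to 3′ on the gene's strand, with GAGGAA, or its reverse complement TTCCTC, in capitals. C1qb lies at chr4:136886201-136886450 (minus strand), C1qc at chr4:136892915-136893164 (minus), Lyz2 at chr10:117282273-117282522 (minus), Stab1 at chr14:31168642-31168891 (minus) and Trem2 at chr17:48346151-48346400 (plus).
C1qb: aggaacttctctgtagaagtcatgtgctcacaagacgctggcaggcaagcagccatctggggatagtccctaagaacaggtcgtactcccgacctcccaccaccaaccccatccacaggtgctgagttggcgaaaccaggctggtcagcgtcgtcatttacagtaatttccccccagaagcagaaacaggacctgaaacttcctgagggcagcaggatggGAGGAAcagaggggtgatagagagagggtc
C1qc: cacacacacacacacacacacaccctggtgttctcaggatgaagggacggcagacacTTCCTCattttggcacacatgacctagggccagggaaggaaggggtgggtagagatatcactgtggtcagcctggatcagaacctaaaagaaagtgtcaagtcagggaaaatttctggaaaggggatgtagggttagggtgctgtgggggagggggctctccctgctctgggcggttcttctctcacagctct
Lyz2: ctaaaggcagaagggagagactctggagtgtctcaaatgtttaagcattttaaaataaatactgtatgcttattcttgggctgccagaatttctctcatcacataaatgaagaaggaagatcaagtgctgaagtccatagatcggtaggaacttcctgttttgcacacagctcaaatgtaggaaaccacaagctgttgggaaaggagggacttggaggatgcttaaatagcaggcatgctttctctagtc
Stab1: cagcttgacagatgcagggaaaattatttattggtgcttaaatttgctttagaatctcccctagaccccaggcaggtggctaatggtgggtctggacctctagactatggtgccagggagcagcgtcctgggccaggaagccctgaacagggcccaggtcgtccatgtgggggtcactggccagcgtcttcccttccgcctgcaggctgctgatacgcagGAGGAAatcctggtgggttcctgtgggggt
Trem2: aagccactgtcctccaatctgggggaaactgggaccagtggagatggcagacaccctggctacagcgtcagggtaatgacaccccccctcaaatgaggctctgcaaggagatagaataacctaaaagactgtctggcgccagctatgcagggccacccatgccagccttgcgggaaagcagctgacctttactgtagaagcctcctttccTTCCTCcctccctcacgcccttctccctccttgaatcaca
The C1qb and Stab1 windows hold the letters on the gene's strand, those of C1qc and Trem2 on the opposite strand, and that of Lyz2 on neither. Of the 34 members, 26 were in the promoter table with 31 windows, and 16 of these windows (51.6%) held the letters on either strand, against 23.3% of all 32851 windows. A match of letters is not a binding site, and a window without them says nothing of the factor.

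The C1q chains, which assemble into the recognition molecule of the classical complement pathway, were higher in every APJ knockout array than in any wild-type array, though none passed the genotype fit. C1qa read -2.67, -3.47 and -2.58 in APJ knockout samples and -4.42, -5.35 and -4.33 in wild-type samples. The groups did not overlap, and replicate 2 was the lowest array of both genotypes. C1qa averaged -2.91 ± 0.49 in APJ knockout and -4.70 ± 0.56 in wild-type samples (SD, n = 3 each), a difference of 1.79 ± 0.35 (SE) with a limma adjusted p of 0.121, and 0.52 under normexp. Once replicates were blocked, its limma adjusted p was 0.0431, which made it the only member called in a fit that called 0.0206% of all features. Within slide 1 (2 arrays per genotype) the C1qa difference was 1.81, and within slide 2 (1 array per genotype) it was 1.75. On the wild-type side 2 of the 3 arrays were well above background.

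C1qc read -2.10, -2.96 and -1.99 in APJ knockout samples and -4.44, -4.99 and -3.36 in wild-type samples. The lowest APJ knockout array was above the highest wild-type array, and C1qc differed by 1.91 ± 0.45 (SE; limma adjusted p = 0.198), by 2.18 within slide 1, 1.37 within slide 2 and 0.62 under normexp. Wild-type C1qc was well above background on 2 of 3 arrays. C1qb, whose probe was well above background on all 6 arrays, read -1.40, -1.81 and -1.51 in APJ knockout samples and -1.97, -2.04 and -2.15 in wild-type samples. Its difference was 0.48 ± 0.13 (SE; limma adjusted p = 0.278), or 0.25 under normexp, and the groups again did not overlap. The summed linear signal of the 3 chains was 0.770, 0.504 and 0.769 in APJ knockout samples and 0.349, 0.299 and 0.372 in wild-type samples.

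The genes of the lysosome and of killing followed the same direction. Lyz2, the lysozyme of macrophages and neutrophils, read -2.91, -3.70 and -3.25 in APJ knockout samples and -5.26, -5.53 and -4.57 in wild-type samples. It was well above background on all 3 APJ knockout arrays and on 1 wild-type array, and the groups did not overlap. Lyz2 averaged -3.29 ± 0.39 in APJ knockout and -5.12 ± 0.50 in wild-type samples (SD, n = 3 each), a difference of 1.83 ± 0.30 (SE). That size rests on background readings in 2 of the 3 wild-type samples, and normexp gave 0.39 (limma adjusted p = 0.475). Its limma adjusted p was 0.0714 with genotype alone, 0.0530 once the slide was blocked and 0.0989 once replicates were. The Lyz2 difference was 2.09 within slide 1 and 1.32 within slide 2. Its limma adjusted p was 0.0496 when wild-type replicate 3 was left out. That array was the only wild-type array well above background, so the value sets APJ knockout signals against background readings alone.

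Ctss, the cathepsin that cuts the invariant chain of MHC class II, read -1.08, -1.85 and -0.60 in APJ knockout samples and -2.47, -3.12 and -1.63 in wild-type samples. The groups overlapped, since APJ knockout replicate 2 was below wild-type replicate 3, and the difference was 1.23 ± 0.45 (SE; limma adjusted p = 0.513), or 0.69 under normexp. Mpeg1, which encodes the pore-forming perforin-2, read -2.33, -2.54 and -2.10 in APJ knockout samples and -3.03, -2.92 and -2.75 in wild-type samples. Its groups did not overlap, and Mpeg1 differed by 0.58 ± 0.14 (SE; limma adjusted p = 0.219), or 0.21 under normexp.

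**Figure D1:**
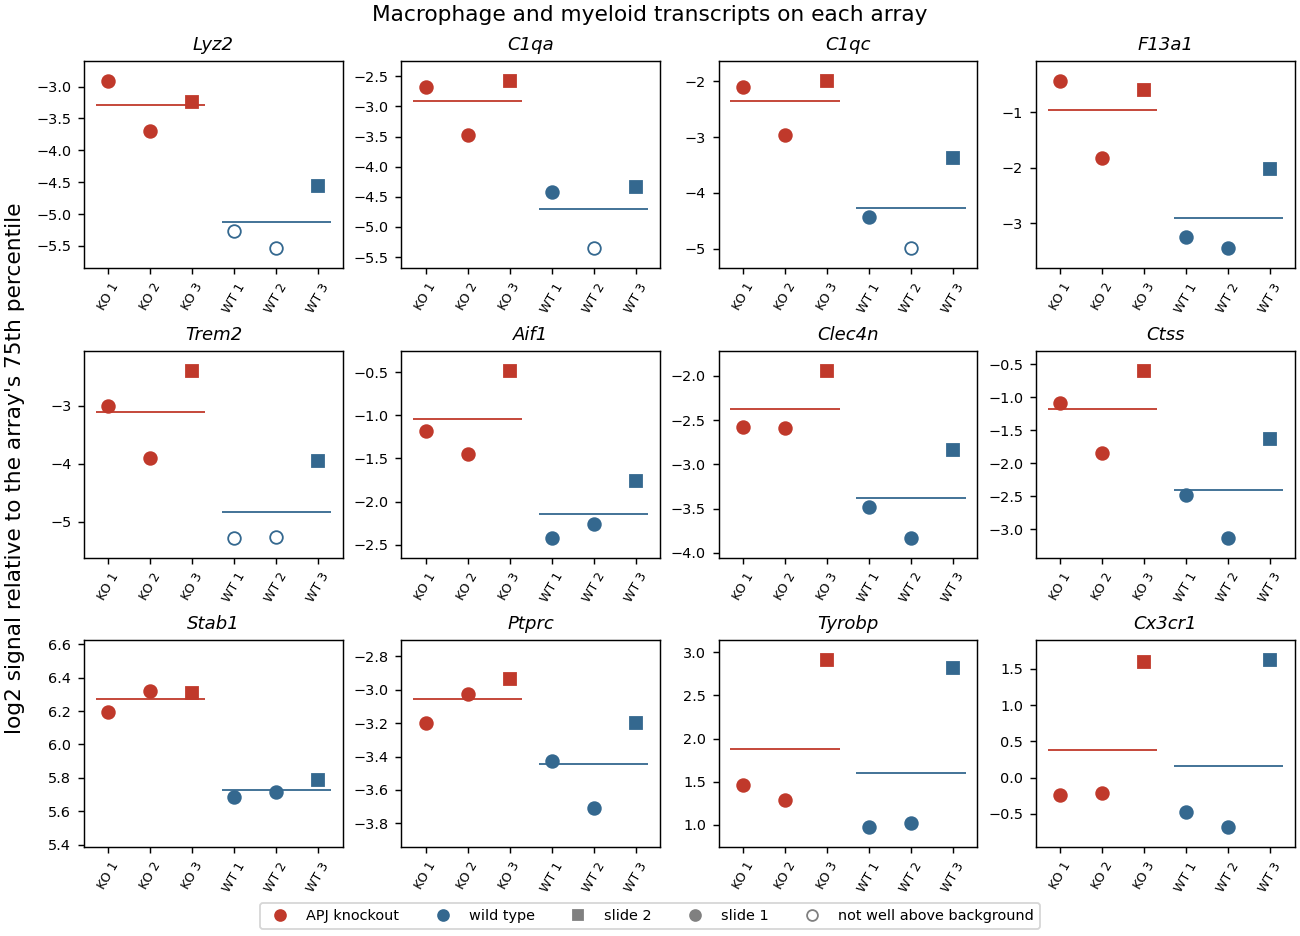
Log2 signal relative to the array's 75th percentile (vertical axis) of 12 members on each array, with APJ knockout (red) left of wild type (blue) and lines at the group means (n = 3 each). Squares are slide 2 and open points were not well above background; Lyz2, C1qa and C1qc separate by genotype, while the Tyrobp and Cx3cr1 squares stand above the circles in both genotypes.

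Among the scavenger and resident-macrophage genes, Stab1 stood out by the tightness of its replicates. Stab1, a scavenger receptor of macrophages and of sinusoidal and lymphatic endothelium, read 6.19, 6.32 and 6.31 in APJ knockout samples and 5.69, 5.71 and 5.78 in wild-type samples. All 3 APJ knockout arrays lay above the wild-type arrays. Stab1 averaged 6.27 ± 0.07 in APJ knockout and 5.73 ± 0.05 in wild-type samples (SD, n = 3 each), a difference of 0.55 ± 0.09 (SE) or 1.46-fold. Its limma adjusted p was 0.0644 with genotype alone and 0.0370 with the slide as a block, where it rose, but 0.0910 once replicates were blocked. The Stab1 difference was 0.56 within slide 1, 0.52 within slide 2 and 0.56 under normexp. The lymphatic endothelial list differed in the same direction: all 8 of its genes were tested and all 8 had a difference above 0, with a median of 0.54. Their summed signal overlapped between genotypes, spanning 579 to 650 in APJ knockout and 534 to 623 in wild-type samples. The part of that list in the Stab1 difference was not tested.

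F13a1, the coagulation factor XIII A chain that perivascular macrophages make, read -0.44, -1.83 and -0.60 in APJ knockout samples and -3.26, -3.45 and -2.03 in wild-type samples. The lowest APJ knockout array, replicate 2, was above the highest wild-type array, replicate 3. The F13a1 difference was 1.96 ± 0.49 (SE) or 3.89-fold, with a limma adjusted p of 0.236, and was 2.22 within slide 1, 1.44 within slide 2 and 1.12 under normexp. Platelets also carry F13a1, and the platelet and megakaryocyte list summed to 8.49 to 10.8 in APJ knockout and 7.12 to 7.64 in wild-type samples, with a median difference of 0.21 over 10 tested genes. The part of platelets in the F13a1 difference was not tested. Mrc1, the mannose receptor, read 1.56, 1.56 and 1.29 in APJ knockout samples and 1.45, 1.45 and 1.32 in wild-type samples, and differed by 0.06 ± 0.11 (SE).

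With the slide as a block, 4 members rose in APJ knockout samples, Aif1, Clec4n, Trem2 and Stab1, in a fit that called 0.784% of all features higher. None of them passed once replicates were blocked, with limma adjusted p of 0.0943, 0.0862, 0.0989 and 0.0910 in that order. Aif1, the calcium-binding protein IBA1 of macrophages, read -1.18, -1.45 and -0.48 in APJ knockout samples and -2.41, -2.26 and -1.76 in wild-type samples. The groups did not overlap, and replicate 3 was the highest array of both. The Aif1 difference was 1.11 ± 0.28 (SE) or 2.15-fold, with a limma adjusted p of 0.247 with genotype alone and 0.0238 with the slide as a block. The values were 1.02 within slide 1, 1.27 within slide 2 and 0.71 under normexp.

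Clec4n, the lectin receptor dectin-2, read -2.58, -2.59 and -1.94 in APJ knockout samples and -3.48, -3.83 and -2.84 in wild-type samples. Replicate 3 was again the highest of each genotype and the groups did not overlap. Its difference was 1.01 ± 0.29 (SE) or 2.02-fold, with a limma adjusted p of 0.321 with genotype alone and 0.0296 once the slide was blocked. It was 1.07 within slide 1, 0.90 within slide 2 and 0.36 under normexp. Trem2, a lipid receptor of macrophages that signals through TYROBP, read -3.00, -3.91 and -2.40 in APJ knockout samples and -5.27, -5.26 and -3.95 in wild-type samples. The lowest APJ knockout array exceeded the highest wild-type array by a small margin, and only 1 wild-type array was well above background. The Trem2 difference was 1.72 ± 0.49 (SE), with a limma adjusted p of 0.317 with genotype alone and 0.0487 with the slide as a block. Size and call both rest on background readings in 2 of the 3 wild-type samples. Within slide 1 it was 1.81, within slide 2 it was 1.55, and under normexp it was 0.38.

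Adgre1, which encodes the macrophage antigen F4/80, had 2 probes of similar mean brightness over the 6 arrays. The probe used, brighter by a small margin, read -2.15, -2.78 and -1.74 in APJ knockout samples and -4.49, -5.65 and -2.74 in wild-type samples. The groups overlapped at APJ knockout replicate 2 and wild-type replicate 3, and 1 wild-type array was well above background. The Adgre1 difference was 2.07 ± 0.71 (SE; limma adjusted p = 0.460), with 2.60 within slide 1, 1.00 within slide 2 and 0.61 under normexp, and it too rests on background readings in wild-type samples. A second probe, well above background on all 6 arrays, gave 0.99. Its means were -2.85 in APJ knockout and -3.84 in wild-type samples, against -2.23 and -4.29 for the probe used. The probe used was thus the dimmer of the 2 in wild-type samples.

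Cd14, the lipopolysaccharide co-receptor, read -3.46, -3.20 and -2.66 in APJ knockout samples and -4.05, -4.48 and -3.53 in wild-type samples. Every APJ knockout array was above the wild-type arrays, and Cd14 differed by 0.91 ± 0.29 (SE; limma adjusted p = 0.408), or 0.20 under normexp. Among members that could not be tested, Fcgr1, the high-affinity IgG receptor, read -3.78, -4.80 and -3.42 in APJ knockout and -5.05, -6.07 and -5.44 in wild-type samples. No wild-type array was well above background for Fcgr1 and 2 APJ knockout arrays were. Against wild-type readings raised to the dimmest signals well above background, the APJ knockout mean was 1.68-fold higher. That mean includes replicate 2, itself not well above background, so the value is not a lower bound. Ms4a7 was well above background on 2 APJ knockout arrays and 1 wild-type array, and Fcgr2b, the inhibitory IgG receptor, on 1 APJ knockout array and no wild-type array.

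**Figure D2:**
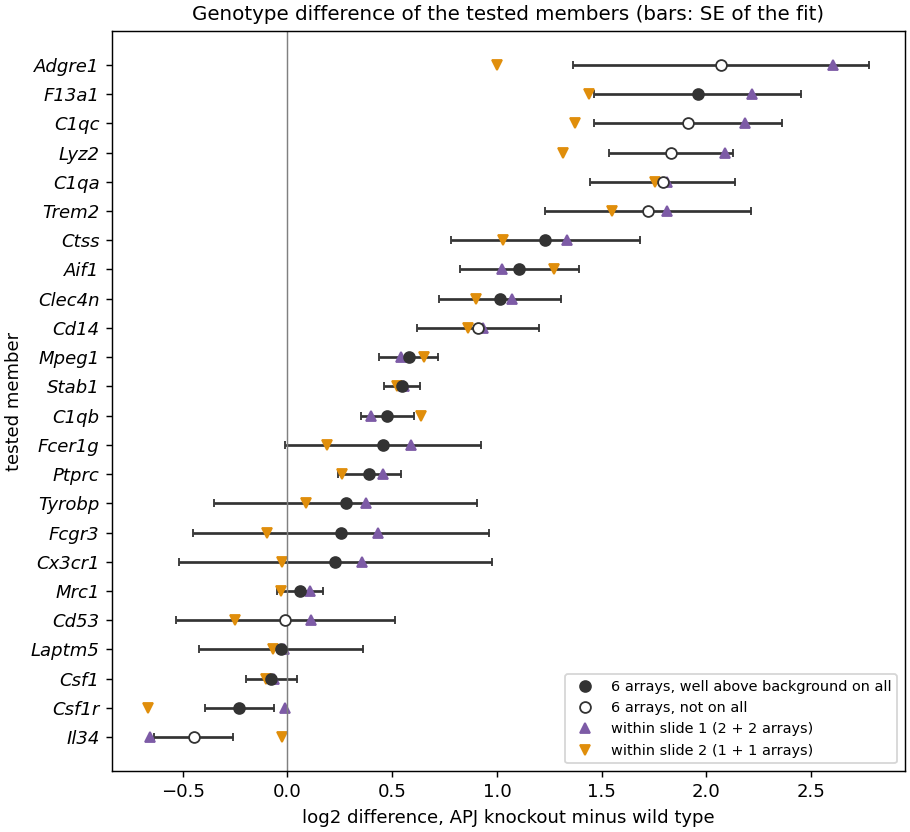
Log2 difference, APJ knockout minus wild type (horizontal axis), of the 24 tested members, with the SE of the limma fit as bars and the differences within slide 1 and within slide 2 as triangles. Among the members well above background on all 6 arrays (filled points) F13a1 has the highest difference, 1.96, and Stab1 at 0.55 has the narrowest bar of the 24.

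Another group of members differed more between slides than between genotypes. They were chosen for full values after those had been seen. Tyrobp, the adaptor DAP12, read 1.46, 1.29 and 2.91 in APJ knockout samples and 0.98, 1.02 and 2.82 in wild-type samples. Replicate 3 was far above the others in both genotypes. Tyrobp differed by 0.28 ± 0.63 (SE) between genotypes and was 1.68 ± 0.10 (SE) higher on slide 2 than on slide 1 (limma adjusted p = 0.00414). Within the replicate pairs 1 to 3 its APJ knockout sample was higher by 0.48, 0.27 and 0.09 (limma adjusted p = 0.348 once replicates were blocked). Of the 24 tested members, 10 were higher on slide 2 by this test and none lower, where 6.6% of all features were higher and 3.94% lower. Among the 10 were Aif1, Cd14, Trem2 and Clec4n, described above for their genotype differences, so the slide difference was not particular to the genes given here.

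Fcer1g, the FcRγ adaptor of Fc receptors, read 2.10, 1.76 and 2.95 in APJ knockout samples and 1.31, 1.37 and 2.76 in wild-type samples, and was 1.22 ± 0.14 (SE) higher on slide 2 (limma adjusted p = 0.0116). Its APJ knockout sample was higher in each pair too, by 0.79, 0.39 and 0.19 (limma adjusted p = 0.304 once replicates were blocked). Fcgr3, a low-affinity IgG receptor, read -2.05, -2.40 and -0.64 in APJ knockout samples and -2.46, -2.86 and -0.54 in wild-type samples, and was 1.85 ± 0.19 (SE) higher on slide 2. Cx3cr1, the fractalkine receptor, read -0.23, -0.21 and 1.59 in APJ knockout samples and -0.47, -0.68 and 1.62 in wild-type samples. It was 2.00 ± 0.12 (SE) higher on slide 2 (limma adjusted p = 0.00414), and in all 3 genes the genotypes overlapped.

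The pan-leukocyte members behaved unevenly. Laptm5, a lysosomal protein of blood cells, read 0.78, 0.77 and 1.79 in APJ knockout samples and 0.78, 0.80 and 1.85 in wild-type samples, and was 1.04 ± 0.06 (SE) higher on slide 2. Cd53, a tetraspanin of leukocytes, read -4.01, -3.82 and -2.72 in APJ knockout samples and -3.93, -4.13 and -2.47 in wild-type samples, and was 1.38 ± 0.12 (SE) higher on slide 2. Ptprc, the common leukocyte antigen CD45, read -3.20, -3.02 and -2.94 in APJ knockout samples and -3.42, -3.71 and -3.20 in wild-type samples. Its lowest APJ knockout array and highest wild-type array were nearly level, and the difference was 0.39 ± 0.15 (SE; limma adjusted p = 0.563), or 0.12 under normexp.

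Mast cell genes moved with the slide as well. All 5 tested genes of the mast cell list were higher on slide 2, with a median of 1.90, while their median genotype difference was -0.05. The fit of Cma1, a chymase, left out 1 APJ knockout array whose spot was an outlier. Cpa3, mast cell carboxypeptidase, read 3.46, 3.44 and 5.15 in APJ knockout samples and 3.46, 3.28 and 5.47 in wild-type samples. The summed signal of the 4 genes measured on every array was 22.3, 20.6 and 67.4 in APJ knockout samples and 20.8, 19.0 and 87.3 in wild-type samples. The summed signal of the 4 tested Fc receptor, adaptor and TREM2 members was 7.39, 6.09 and 16.1 in APJ knockout samples. In wild-type samples it was 4.65, 4.78 and 14.6, with replicate 3 the highest of each genotype in both sums. The bright Fcer1g and Tyrobp probes make up most of the second sum, and Fcgr1 and Fcgr2b are not in it. The part of mast cells in the slide difference of Tyrobp, Fcer1g and Fcgr3 was not tested.

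**Figure D3:**
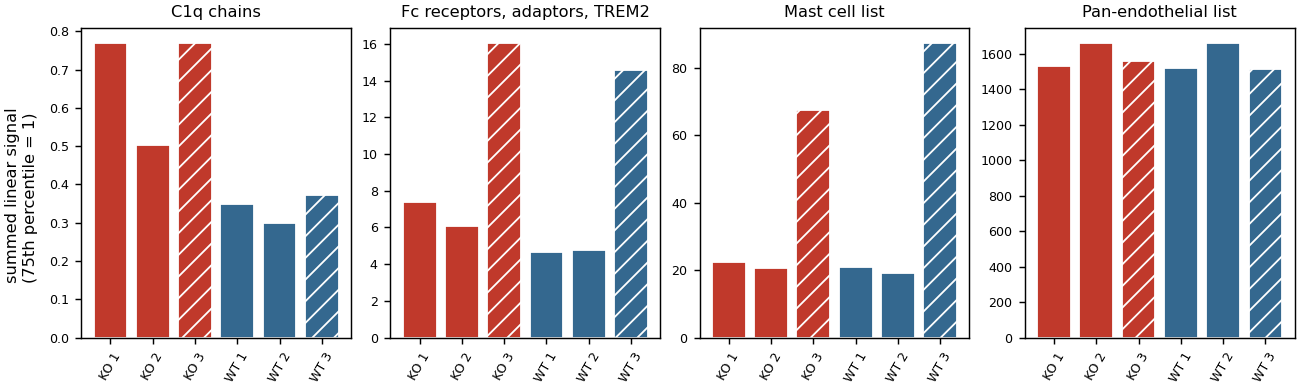
Summed linear signal (vertical axis, 75th percentile of the array as 1) of the C1q chains, the 4 tested Fc receptor, adaptor and TREM2 members, 4 mast cell genes and the pan-endothelial list, with APJ knockout bars (red) left of wild type (blue) and slide 2 hatched. The C1q sums are higher in each APJ knockout array, the mast cell sums are 67.4 and 87.3 on slide 2, and the pan-endothelial sums stay between 1517 and 1662.

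No gene of the CSF1 receptor axis passed the threshold, and the Spi1 probe was below the background mark on all arrays. Csf1, made by endothelium and stroma, read 0.79, 1.11 and 1.10 in APJ knockout samples and 1.00, 1.02 and 1.20 in wild-type samples, a difference of -0.08 ± 0.12 (SE). Il34, the ligand that keratinocytes make, read -4.15, -4.50 and -4.00 in APJ knockout samples and -3.89, -3.45 and -3.97 in wild-type samples. Its APJ knockout arrays all lay below the wild-type arrays, as for 5.82% of all features, and Il34 differed by -0.45 ± 0.19 (SE; limma adjusted p = 0.632), or -0.17 under normexp. The keratinocyte list had 0 of 7 tested genes above 0 with a median of -1.28, and its sum spanned 10.4 to 11.2 in APJ knockout and 10.3 to 34.2 in wild-type samples. Its median was -0.22 within slide 1 and -2.75 within slide 2, where wild-type replicate 3 had the sum of 34.2. Il34 itself differed by -0.66 within slide 1 and by -0.03 within slide 2. Its probe was not well above background in APJ knockout replicate 2. The part of keratinocytes in the Il34 value was not tested.

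Csf1r, the receptor itself, read 2.73, 2.74 and 2.62 in APJ knockout samples and 2.69, 2.80 and 3.28 in wild-type samples. Wild-type replicate 3 stood above the other 5 arrays, and the difference was -0.23 ± 0.16 (SE). The 3 Csf1r probes disagreed, with differences of -0.23, 0.41 and 0.02.

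**Figure D4:**
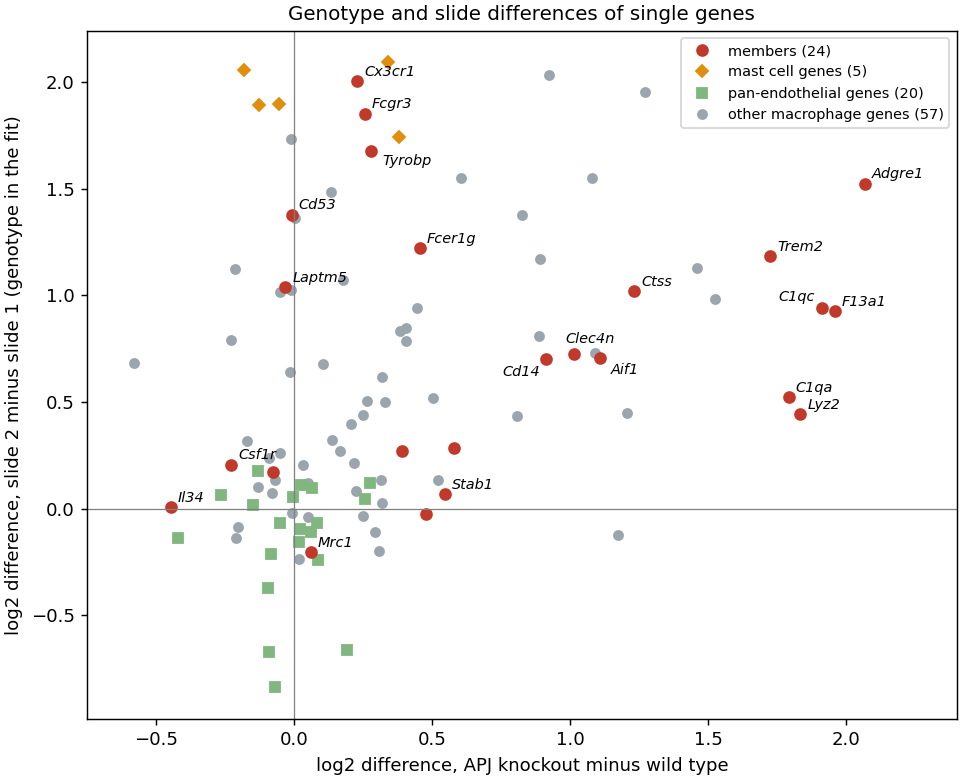
Log2 difference between genotypes (APJ knockout minus wild type, horizontal axis) against that between slides (slide 2 minus slide 1, vertical axis) for 24 tested members, 5 mast cell genes, 20 pan-endothelial genes and 57 other macrophage genes, 1 point per gene. Lyz2 and C1qa lie far to the right and low, and Cx3cr1, Fcgr3 and Tyrobp lie near 0 across and beside the mast cell genes upward.

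Members co-varied across the 6 arrays, which share scaling and slide. The median Pearson correlation over 276 pairs was 0.59, against 0.02 over pairs of all features, and 0.66 against 0.03 once group means were removed. C1qa and C1qc had a correlation of 0.97, and Lyz2 and C1qa likewise 0.97. Tyrobp and Fcer1g reached 0.97, and Cx3cr1 and Tyrobp 0.99, the highest pair. Lyz2 and Tyrobp, across the 2 groups of genes, had 0.40, but 0.64 with group means removed. In that form Aif1 and Tyrobp went from 0.65 to 0.95, but C1qb and Tyrobp from 0.11 to -0.08. Lyz2 and C1qa went from 0.97 to 0.80, and Lyz2 and Stab1 from 0.91 to -0.06. The split into 2 groups of genes thus depends in part on whether group means are kept. Mrc1 and Il34 had medians of -0.25 and -0.49 against the other members, and -0.75 and -0.12 with group means removed. Csf1r had -0.15 over the 6 arrays, but 0.55 with group means removed.

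**Figure D5:**
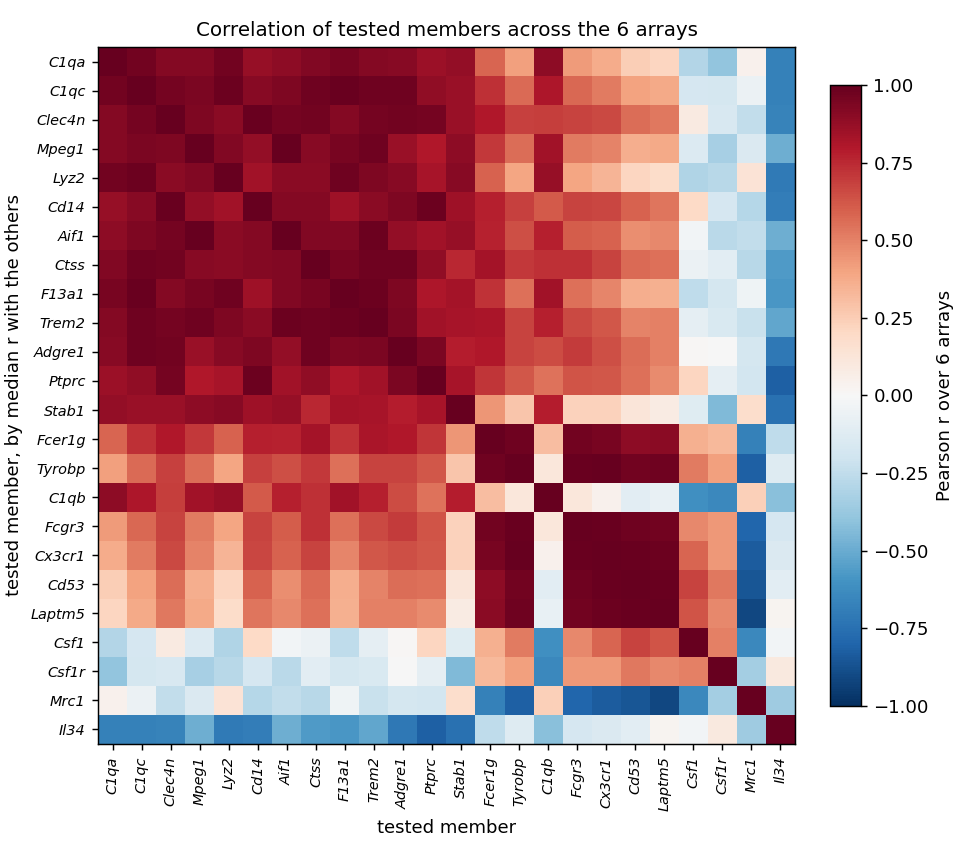
Pearson correlation over 6 arrays (colour scale, -1 to 1) between each pair of the 24 tested members, ordered by their median correlation with the others. A red block runs from C1qa to Stab1, and a second joins Fcer1g, Tyrobp, Fcgr3, Cx3cr1, Cd53 and Laptm5. Csf1, Csf1r, Mrc1 and Il34 come last, with negative medians, though single pairs with the second block reach 0.68 (Csf1 and Cd53) and -0.91 (Mrc1 and Laptm5).

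Of 512 candidate genes outside the set, the 10 whose pattern was most like the members' mean over the 6 arrays included H2-Ab1 (correlation 0.99), Ccl6, Lilrb4a, Ly86, Ccl9, S100a8, Pilra, Kel and Ccr2 (0.97). The list of 84 other macrophage genes had 57 tested, of which 41 had a difference above 0, against 43.9% of all features. Their median was 0.23, and none passed limma with genotype alone. Some of the 57 had passed the brightness filter through 1 genotype only, and the counts over the 57 include them. Over the 51 with a probe well above background on all 6 arrays, the median was 0.22. At an unadjusted limma p under 0.05, 11 of the 57 (19.3%) were higher, against 4.48% of all features. With the slide as a block 2 of them rose, the chemokine receptor gene Ccr2 by 1.46 (limma adjusted p = 0.0134) and Ly86, the MD-1 partner of a Toll-like receptor homologue, by 1.09 (limma adjusted p = 0.0446), and neither passed once replicates were blocked (limma adjusted p = 0.0739 and 0.0970). The slide fit called 0.784% of all features higher in APJ knockout. On slide 2, 25 of the 57 were higher and none lower, where 6.6% of all features were higher and 3.94% lower.

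Markers of the other cell types were read beside the members, and none of these lists had a gene past the limma threshold with genotype alone. At an unadjusted limma p under 0.05, 7 of the 8 lymphatic endothelial genes were higher and none lower, against 4.48% of all features higher. The other lists had 0 to 3 genes higher at that p, the most being 3 of 8 T and NK cell and 3 of 10 platelet genes, and 0 to 1 lower. Klrb1c, 1 of the 3 T and NK cell genes, had passed the brightness filter only through the APJ knockout arrays, so that count favours the higher direction. With the slide as a block, Ctsg of the neutrophil list, H2-Ab1 of the dendritic list, Clec1b of the platelet list and Pdpn and Stab2 of the lymphatic list rose, and none of these passed once replicates were blocked. The neutrophil list had a median difference of 0.40 over 8 tested genes and the dendritic cell and antigen presentation list 0.36 over 6, and 4 genes of each were higher on slide 2. The T and NK cell list had a median of 0.12, the B cell list -0.10 and the erythroid list 0.26. Fibroblast genes had a median of -0.26, mural cell genes -0.01, and melanocyte and Schwann cell genes -0.05. Pan-endothelial genes had a median of 0.01, and 4 of the 20, Pecam1, Tek, Emcn and Clec14a, were lower on slide 2. The part of these cells in the members' differences was not tested.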

How the data were processed

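The members and lists were chosen with earlier results of these data known. Intensity values are the deposited Agilent Feature Extraction 10.7.3.1 processed signals, background-subtracted by the software per the file headers (protocol GE1_107_Sep09). The deposited value table of the authors holds the same signals times 1 constant per array, and served as an alternative. Control and outlier spots were left out, spots of a probe averaged, and log2 values taken from the deposited signals minus each array's 75th percentile. Probes were named through RefSeq accessions (47.4% received a symbol).

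Genotype was fitted with limma 3.58.1 in R 4.3.3 on 24245 features, tested on simulated data. The slide, replicate number, array weights, quantile scaling, normexp correction, filters, probe averaging and leaving out each array were alternatives. Of these, normexp on median signals (offset 50), in place of mean signals, was set after the data were seen, as were the fit on slide 1 alone and the reading of the slide coefficient itself. Deviations of same-numbered samples had correlations of 0.23, 0.15 and 0.65, the last being the pair on slide 2. The 2 crossed pairs on slide 1 had 0.28 and 0.36, and pairs across slides -0.48 to -0.35. Within slide 1 these values show no pairing by replicate number, so the replicate block is given only as an alternative. All members are named. By rule, full values are given for those called in a genotype fit, the 12 with the largest differences, Csf1, Il34, Stab1 and Ptprc. Outside that rule, full values are also given for C1qb, Mrc1, Csf1r, Fcgr1, Tyrobp, Fcer1g, Fcgr3, Cx3cr1, Laptm5 and Cd53. Array number limits precision. Of the genes most like the members, 1 is not reported here.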

Additional observations from a re-analysis of the deposited data

How the results depend on the processing

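With genotype alone 90 features were higher and 45 lower in APJ knockout. The counts were 3 and 0 without the filter on dim probes, 4 and 1 with the replicate block, 190 and 101 once the slide was blocked, 149 and 73 with array weights, 9 and 2 on slide 1 alone, and 11 to 46 and 2 to 27 when 1 array was left out. Members called higher numbered 0 with genotype alone, 1 (Stab1) with quantile normalization, 1 (Stab1) with the percentile over detected probes, 1 (C1qa) with the replicate block, 4 once the slide was blocked, 2 (Lyz2 and Stab1) with array weights, and 0 to 1 when 1 array was left out. The replicate block changed no other member's call. Of the other macrophage genes, 2 were called once the slide was blocked and 1 with array weights.

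The members' median difference was 0.51, with 0.25 under normexp and 0.46 to 0.94 when 1 array was left out, the highest without wild-type replicate 3. The other macrophage genes' median was 0.23, with 0.12 under normexp and 0.09 to 0.37 when 1 array was left out. The median correlation was 0.59, with 0.41 under normexp, 0.39 without the filter and 0.46 to 0.77 when 1 array was left out. Members near 0 changed sign: Cd53 gave 0.00259 with quantile normalization, 0.00132 from the authors' table, 0.0783 with array weights and 0.11 on slide 1 alone, and Csf1r gave 0.0676 as the mean of its probes. When 1 array was left out, Laptm5 spanned -0.37 to 0.32, Cd53 -0.41 to 0.51, Csf1 -0.13 to 0.0291, Cx3cr1 -0.38 to 0.96, Tyrobp -0.23 to 0.89 and Fcgr3 -0.27 to 0.96. The causes were not tested. Under normexp 15 of the 24 tested members had differences more than 1.5 times smaller, among them Lyz2 (0.39), Trem2 (0.38), C1qa (0.52) and Cd14 (0.20), while Stab1 gave 0.56.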
